A study of Mus musculus with 30 samples.

Results

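The transcriptional response to 1 h of lipopolysaccharide (LPS) was followed in mouse macrophages that had first been given a β2 adrenergic agonist. The 6 libraries described are those of the cultures labelled M2, M3 and M4 at 0 h and at 1 h of LPS, of 30 libraries in the series, and each 1 h library was compared with the 0 h library of the same culture. The cells were bone marrow-derived macrophages of wild-type (WT) C57Bl/6 mice, differentiated with M-CSF, and all 6 libraries came from cells given 1 µM metaproterenol hemisulfate (MPH), which is that agonist. MPH was given 2 h before LPS, whose dose the labels give as 100 ng/µL, and the 0 h libraries came from cells given MPH for 2 h and no LPS. Beside these stand 8 libraries at 0 and 1 h from the cultures D3, D4, D5 and D6 of the same cells, pretreated for 2 h with the vehicle DMSO, and the 3 libraries of M2, M3 and M4 at 2 h of LPS. The p-values of the fit measure how far cultures differ in their changes over time, with level differences removed and MPH and DMSO cultures pooled. The labels do not say whether the cultures came from different mice, so that spread may be technical. Expression is given in RPKM (a read count scaled by transcript length and library size), and each change is a difference of log2(RPKM + 0.5), a scale that understates the change of genes with low values.

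LPS is a component of the outer membrane of Gram-negative bacteria that macrophages sense through Toll-like receptor 4 with the help of CD14. The receptor activates NF-κB and MAP kinases, which within minutes turn on genes for cytokines, chemokines, transcription factors and the inhibitors that later shut the same pathways down. Agonists of the β2 adrenergic class act through the G protein Gs, adenylyl cyclase and cyclic AMP (cAMP), which activates protein kinase A and the transcription factor CREB, and cAMP is known to raise Il10 and to restrain Tnf in macrophages.

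Promoter sequences are shown for 5 genes around which the results turn: the chemokine genes Cxcl1 and Cxcl2 and the inhibitor gene Nfkbia, which rose in every culture, and Nr4a2 and Dusp5, which are also compared with DMSO. Each is the 250 bases before the transcription start in RefSeq on GRCm38.p6, matched by symbol, a later build than the mm9 of the deposited values. Capitals mark matches to the NF-κB motif, searched as GGG and TTCC with 3 bases of any kind between them, or to TGACG, a core of the cAMP response element, on either strand.
Cxcl1, chr5:90890995-90891244, plus strand: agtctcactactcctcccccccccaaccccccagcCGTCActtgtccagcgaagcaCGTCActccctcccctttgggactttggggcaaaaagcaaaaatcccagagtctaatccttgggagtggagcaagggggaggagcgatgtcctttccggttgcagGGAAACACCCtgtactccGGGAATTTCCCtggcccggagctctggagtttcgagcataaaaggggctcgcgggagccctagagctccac
Cxcl2, chr5:90903649-90903898, plus strand: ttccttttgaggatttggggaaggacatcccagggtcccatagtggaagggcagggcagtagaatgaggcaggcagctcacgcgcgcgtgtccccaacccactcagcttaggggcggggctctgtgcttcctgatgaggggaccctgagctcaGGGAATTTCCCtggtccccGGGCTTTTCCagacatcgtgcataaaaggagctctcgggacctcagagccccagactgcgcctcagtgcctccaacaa
Nfkbia, chr12:55492648-55492897, minus strand: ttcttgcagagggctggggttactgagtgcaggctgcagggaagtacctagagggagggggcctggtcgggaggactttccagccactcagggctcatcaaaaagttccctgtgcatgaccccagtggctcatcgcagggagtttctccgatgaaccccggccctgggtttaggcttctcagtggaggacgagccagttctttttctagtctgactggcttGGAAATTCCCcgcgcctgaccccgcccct
Nr4a2, chr2:57124004-57124253, minus strand: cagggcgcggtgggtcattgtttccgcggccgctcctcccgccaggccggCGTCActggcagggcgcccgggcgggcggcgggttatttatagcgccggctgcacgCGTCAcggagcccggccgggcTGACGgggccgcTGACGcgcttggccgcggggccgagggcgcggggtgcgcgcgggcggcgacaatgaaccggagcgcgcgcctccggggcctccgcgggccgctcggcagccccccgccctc
Dusp5, chr19:53528895-53529144, plus strand: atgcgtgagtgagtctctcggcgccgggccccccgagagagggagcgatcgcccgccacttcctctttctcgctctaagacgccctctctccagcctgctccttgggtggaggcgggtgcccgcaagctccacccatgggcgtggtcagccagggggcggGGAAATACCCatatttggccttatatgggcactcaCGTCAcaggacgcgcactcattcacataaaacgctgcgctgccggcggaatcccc
The NF-κB motif occurred 3 times in the window of Cxcl1 and 3 times in that of Cxcl2, in each case with a pair of matches that overlap on opposite strands, and 1 time each in those of Nfkbia and Dusp5. TGACG occurred 4 times in the Nr4a2 window, 2 times in that of Cxcl1 and 1 time in that of Dusp5. The windows of Tnf, Il1b and Txnip were also searched and hold neither set of letters, and the printed windows are only those with a match. Of the 8294 tested genes with a promoter entry, 6.25% held the NF-κB motif and 32.2% held TGACG. Among the 383 that rose after LPS these shares were 9.66% and 34.5%, and among the 630 that fell they were 4.76% and 34.0%. A match describes letters in the window and not a bound site.

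The 6 libraries had about 16.0 to 59.5 megareads each, as estimated from the steps between low values, and the shallowest was M3 at 0 h. Macrophage markers were high throughout: the summed level of 18 markers, Csf1r, Adgre1, Cd68 and Lyz2 among them, was 6400 to 9720 RPKM at 0 h and 5950 to 9260 RPKM at 1 h, and all 18 reached 1 RPKM in at least 1 library of each time. Of these markers 0 rose and 1 fell, Cebpa, a transcription factor gene of the myeloid lineage (-0.72, adjusted p = 0.0487 in limma, 0.0803 after median-of-ratios scaling), and that call was lost in 5 of 7 removals of 1 culture (largest adjusted p = 0.27). Summed markers of B cells, T and NK cells, dendritic cells, stromal cells, and erythroid and mast cells stayed at or below 1.9 RPKM per list. Neutrophil markers summed to 41.1 to 54.9 RPKM at 0 h and to 55.6 to 84.8 RPKM at 1 h, carried by S100a8 and S100a9. Of the 7 neutrophil markers tested 0 passed in limma (smallest adjusted p = 0.104, for S100a9, which passed without the library labelled M4 at 1 h at 0.0183), while 5 rose under DMSO. In the MPH libraries the markers Ly6g, Retnlg and Cxcr2 stayed below 0.5 RPKM. Ngp and Ltf had means of 5.69 and 1.76 RPKM at 0 h and of 6.57 and 1.74 RPKM at 1 h. Of the 10 neutrophil markers 7 reached 1 RPKM in at least 1 MPH library at 0 h and 6 at 1 h. The part of such cells in any result was not tested. In bulk samples fewer cells of a type and less RNA per cell cannot be told apart.

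The library labelled M4 at 1 h differed from those labelled M2 and M3 at 1 h. At that time M2 lay within the range of the 4 DMSO 1 h libraries for 54.4% of 10239 tested genes, M3 for 67.3% and M4 for 72.8%. For 18 known target genes of cAMP and CREB the contrast was wider, with 2 of 18 inside that range in M2, 4 of 18 in M3 and 13 of 18 in M4. Thrombospondin-1 (Thbs1), a secreted matrix protein gene, was at 292, 379.8 and 189 RPKM at 0 h and at 372, 626 and 4.24 RPKM at 1 h in M2, M3 and M4, where the DMSO 1 h libraries spanned 2.78 to 25.5 RPKM. Crem, which encodes a cAMP-responsive transcription factor, was at 22.0, 53.7 and 21.2 RPKM at 0 h and at 33.0, 47.9 and 0.946 RPKM at 1 h, with 1.01 to 3.45 RPKM in the DMSO 1 h libraries. At 2 h of LPS, M4 was back at 167 RPKM of Thbs1 and 10.2 RPKM of Crem. For these 2 genes M4 thus stood above the DMSO libraries before LPS and at 2 h, and within or near the DMSO libraries at 1 h. Thbs1 and Crem were chosen for this description after their values were seen. The cause was not tested, the label was kept, and values are given for each culture and, where they move, without the library labelled M4 at 1 h.

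After 1 h of LPS 1236 of 10239 genes changed past an adjusted p of 0.05 in limma (12.1%), 477 of them higher (4.66%) and 759 lower (7.41%), with culture as a block. Rises were larger than falls. Of the genes that passed, 269 were at least 2-fold higher and 59 at least 8-fold higher, whereas 68 were at least 2-fold lower, 5 at least 4-fold lower and 0 at least 8-fold lower. All 3 cultures moved the same way in 476 of the 477 rises and 757 of the 759 falls, where 48.3% of all genes do so. In 680 of the 1236 genes that passed the 1 h libraries did not overlap the 0 h libraries, against 11.6% of all genes. The same libraries enter the test that made the calls, so the counts of direction and overlap describe the calls and do not support them. Many falls were small and close to the overall shift: the median change of all genes was -0.0921 and the rises made up 38.6% of the calls. After median-of-ratios scaling that median was -0.012 and 982 genes passed, 570 higher (5.59%) and 412 lower (4.04%), or 58% higher. The total was 9.63% of genes there. Without the library labelled M4 at 1 h 1275 genes passed (12.5%), 4.65% of genes higher and 7.81% lower, and 924 of the 1275 were among the 1236. Leaving out culture M2 or M3 left 692 or 748 calls, and the fit without a block for culture made 315. At an unadjusted p below 0.05 stood 27.7% of genes.

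**Figure D1:**
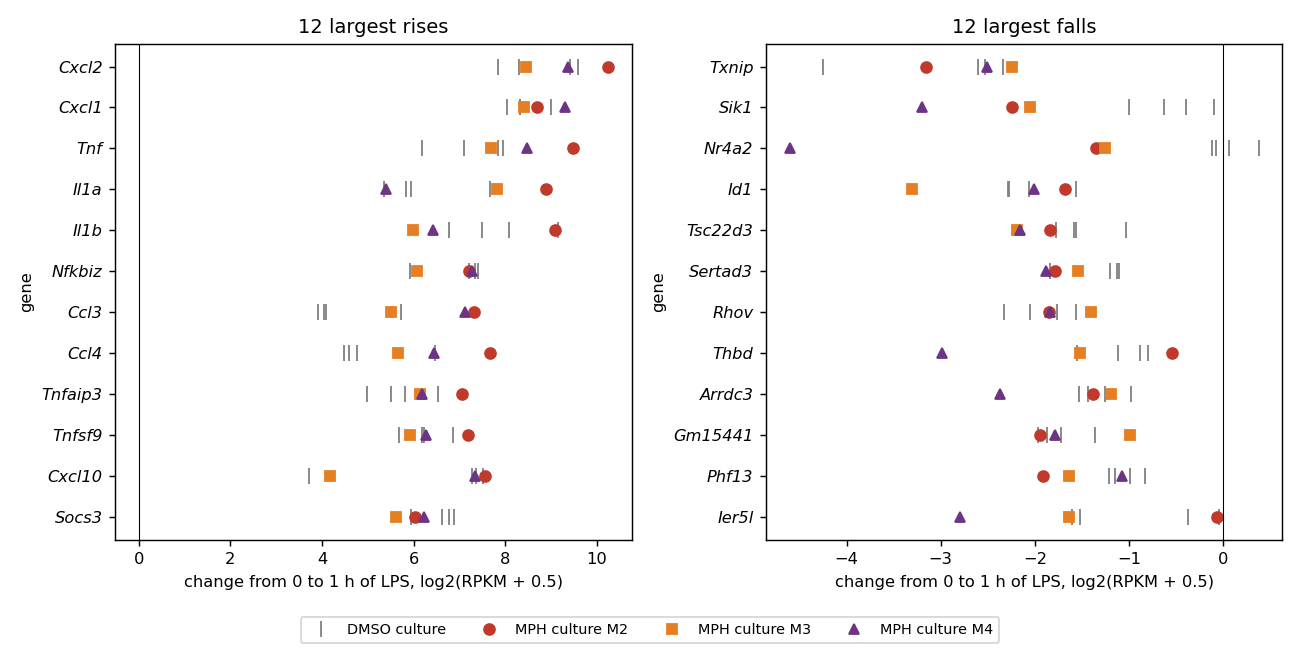
Change from 0 to 1 h of LPS on the log2(RPKM + 0.5) scale for the 12 largest rises and the 12 largest falls that passed in limma with 1 direction in all 3 MPH cultures. Symbols are the cultures M2, M3 and M4, and grey ticks are the 4 DMSO cultures. M4 lies well to the left of the others for Nr4a2 (-4.61) and Thbd (-2.98), and among the rises it is the lowest of the 3 for Il1a (5.39).

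Of 19 genes tested for secreted inflammatory cytokines 11 rose and 0 fell, with a median change of 2.97 where that of all genes was -0.0921. For this list and the later ones at 1 h, the shares over all genes were 4.66% higher and 7.41% lower. Tnf, the gene of tumour necrosis factor, was at 1.48, 3.92 and 4.98 RPKM at 0 h and at 1425, 911 and 1950 RPKM at 1 h in M2, M3 and M4. Every 1 h library was far above every 0 h library, and the change was 8.55 (SE 0.40, adjusted p = 4.56e-09 in limma). Il1a, which encodes interleukin-1α, went from 0.0989, 0.189 and 0.0595 RPKM to 283, 154 and 23.0 RPKM. M4 reached the lowest level of the 3, and the change of 7.36 (SE 0.58, adjusted p = 8.95e-07) became 8.47 without the library labelled M4 at 1 h. Tnfsf9, the gene of the T cell costimulatory ligand 4-1BBL, rose by 6.46 (SE 0.37), from 1.93, 3.85 and 5.23 RPKM to 353, 263 and 439 RPKM.

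Il1b, which encodes interleukin-1β and is named in the title of the series, stood at 1.22, 9.48 and 1.06 RPKM at 0 h in M2, M3 and M4 and at 934, 633 and 133 RPKM at 1 h. The groups did not overlap, M3 had the highest level before LPS, and M4 had the lowest at 1 h. The means were 3.92 ± 4.81 RPKM and 567 ± 404 RPKM (SD, n = 3). The change was 7.17 (SE 0.57, adjusted p = 9.7e-07 in limma), with 9.09, 5.99 and 6.42 in the single cultures. An exact two-sided permutation test of 3 against 3 libraries gave p = 0.1 and the exact sign-flip test over the 3 cultures p = 0.25, each the smallest value that its 20 arrangements or 8 patterns can give. At 2 h Il1b was at 1386, 1810 and 1794 RPKM, so that M4 had reached the level of the others.

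The remaining cytokine genes that rose were Il6, Il10, Il23a, Lif, Csf1, Csf2 and Il1rn, with changes from 2.28 for Il1rn, the antagonist of the interleukin-1 receptor, to 5.06 for Il6. Il10, the gene of the anti-inflammatory cytokine interleukin-10, was at 0.0213, 0.334 and 0.0129 RPKM at 0 h and 29.1, 50.4 and 0.295 RPKM at 1 h. M2 and M3 rose steeply and M4 stayed below the DMSO 1 h libraries, which spanned 0.401 to 3.56 RPKM. The change of 4.13 (SE 0.88, adjusted p = 0.0062) became 6.01 without the library labelled M4 at 1 h, and its call was lost when culture M2 or M3 was left out (lowest value 3.23, largest adjusted p = 0.0867). Il6 showed the same split, at 77.1, 38.6 and 2.31 RPKM at 1 h from 0.129, 0.173 and 0.0465 RPKM, and its change of 5.06 became 6.46 without that library. Osm, a cytokine gene of the Il6 family, was at 23.3, 12.8 and 15.3 RPKM at 0 h and 75.2, 63.0 and 8.26 RPKM at 1 h and did not pass (adjusted p = 0.26), but did so without the library labelled M4 at 1 h (2.03, adjusted p = 0.00937). The cytokine genes Il18, Il15, Ebi3, Il27, Il12b, Csf3 and Tnfsf15 did not pass, with changes from -0.08 for Il15 to 1.86 for Csf3.

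**Figure D2:**
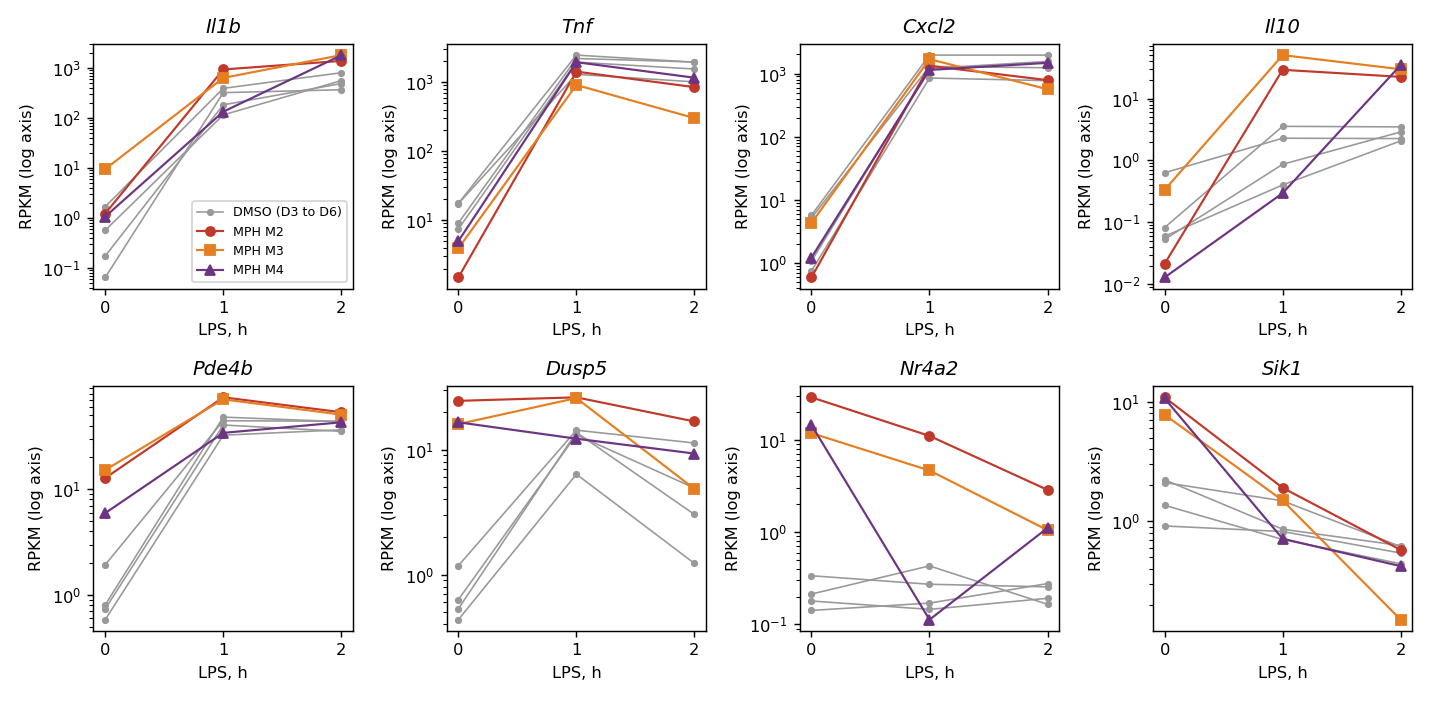
Level of 8 genes in RPKM, on log axes, at 0, 1 and 2 h of LPS in the cultures M2, M3 and M4 (coloured lines) and in the DMSO cultures D3 to D6 (grey lines). Il1b, Tnf and Cxcl2 rise from 0 to 1 h in every line, whereas at 1 h Il10 in M4 is at 0.295 RPKM and Nr4a2 in M4 at 0.113 RPKM, near the DMSO lines.

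The largest rises of all were those of the chemokine genes Cxcl2 and Cxcl1. Of 14 chemokine genes tested 11 rose and 0 fell, with a median change of 3.86. Cxcl2, which encodes a neutrophil attractant, went from 0.592, 4.32 and 1.22 RPKM in M2, M3 and M4 to 1324, 1688 and 1139 RPKM, a change of 9.36 (SE 0.47, adjusted p = 8.4e-09 in limma). Cxcl1, the gene of a related attractant, went from 0.0294, 0.656 and 0.424 RPKM to 219.6, 394 and 580.4 RPKM, a change of 8.80 (SE 0.23). For both genes the windows printed above hold 3 matches to the NF-κB motif, and every 1 h library was far above every 0 h library. Ccl3 and Ccl4, whose products attract monocytes and other leukocytes, were at 0.388, 2.44 and 2.61 RPKM and 0.717, 6.60 and 4.60 RPKM at 0 h. At 1 h they were at 141, 132 and 432 RPKM and 248, 358 and 444 RPKM, changes of 6.64 (SE 0.33) and 6.59 (SE 0.43), with M4 the highest of the cultures for each. Cxcl10, a gene also driven by interferon, rose by 6.35 (SE 0.67), from 0.684, 7.48 and 0.641 RPKM to 221, 142 and 184 RPKM, and M3 changed least from the highest starting level. The monocyte attractants Ccl2 and Ccl7 rose by 3.92 and 3.88, and Cxcl3, Ccl9, Ccl22 and Cxcl16 by 3.83, 1.32, 1.13 and 0.70. Without the library labelled M4 at 1 h 9 chemokine genes passed, with Ccl22 (adjusted p = 0.0699) and Cxcl16 (adjusted p = 0.108) lost. Ccl5, Ccl12 and Ccl17 did not pass, at 2.42, 0.65 and 0.30, and Cxcl5, Cxcl9 and Cxcl11 were below the filter on low values.

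NF-κB genes and the inhibitors that the pathway induces rose in nearly full number. Of 22 tested 18 rose and 0 fell, with a median change of 2.09. Nfkbia, which encodes the inhibitor IκBα, was at 8.46, 26.0 and 21.9 RPKM at 0 h and 683, 541 and 779.8 RPKM at 1 h in M2, M3 and M4, a change of 5.24 (SE 0.31, adjusted p = 4.15e-08 in limma). Tnfaip3, the gene of the ubiquitin-editing enzyme A20, went from 2.22, 3.15 and 3.12 RPKM to 363, 256 and 263 RPKM, and Nfkbiz, the gene of the nuclear IκB protein IκBζ, from 1.31, 2.22 and 1.18 RPKM to 268, 183 and 261 RPKM. Their changes were 6.46 (SE 0.25) and 6.86 (SE 0.28). Socs3, which encodes a suppressor of cytokine signalling, rose by 5.96 (SE 0.19) to 114, 130.3 and 204 RPKM. In all 4 genes the change of M4 was at least as large as that of M3, and the library labelled M4 at 1 h lay inside the DMSO 1 h range for 22 of the 22 genes of the list, M2 for 16 and M3 for 13. The RNA-decay factors Zfp36, Zc3h12a and Zc3h12c rose by 3.06, 2.13 and 3.32, and the signalling and survival genes Traf1 and Birc3 by 2.99 and 2.02. The subunit genes Rel, Relb, Nfkb2 and Rela rose by 2.18, 1.32, 1.02 and 0.46, whereas Nfkb1 (0.48), Cyld (0.06), Cish (0.99) and Bcl3 (0.19) did not pass.

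Immediate-early transcription factor genes moved in both directions, with 13 of 21 tested higher and 4 lower and a median change of 1.55. Egr1 and Egr2, zinc finger factors, were at 0.191, 0.0203 and 0.470 RPKM and 0.0214, 0.0479 and 0.110 RPKM at 0 h and at 53.3, 19.7 and 54.8 RPKM and 15.7, 21.1 and 37.7 RPKM at 1 h in M2, M3 and M4, changes of 5.80 and 5.41 (SE 0.52 and 0.36). Maff, Klf6 and Ier5 rose by 3.72, 2.43 and 1.97, and Jun by 2.16. Those that fell were Fosl2, Fosb, Klf4 and Klf10, 2 of them members of the AP-1 family that cAMP also raises. Fosl2 was at 69.7, 48.1 and 45.9 RPKM at 0 h and 29.6, 33.4 and 7.10 RPKM at 1 h, a change of -1.45 (SE 0.33, adjusted p = 0.00982 in limma). The fall was deepest in M4. Klf4, a factor gene that was at 35.8, 10.2 and 25.4 RPKM at 0 h, fell to 14.4, 4.30 and 7.38 RPKM. Fos itself stood at 42.3, 35.9 and 34.7 RPKM at 0 h and 71.1, 48.0 and 23.9 RPKM at 1 h and did not pass (adjusted p = 0.75), up in M2 and M3 and down in M4.

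Phosphatase and Sprouty genes, which switch off MAP kinase signalling, rose in 7 of 14 cases and fell in 0, with a median change of 1.30. Among all genes 4.66% rose and 7.41% fell. Dusp4, Dusp2 and Dusp1 rose by 3.55, 3.77 and 2.93 and Dusp16 and Dusp8 by 1.94 and 1.87. Dusp4, a nuclear phosphatase gene, went from 4.10, 3.72 and 8.32 RPKM to 35.2, 55.8 and 137 RPKM, and M4 was the highest of the cultures at both times. Dusp5, another nuclear phosphatase gene, stood at 24.5, 16.0 and 16.5 RPKM at 0 h and 26.2, 25.8 and 12.2 RPKM at 1 h and did not pass (0.11, adjusted p = 0.861 in limma).

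Known targets of cAMP and CREB were split. Of 18 tested 6 rose and 6 fell, with a median change of -0.294. The median differed between the cultures, at 0.286 in M2, 0.0359 in M3 and -1.01 in M4. Without the library labelled M4 at 1 h it stood at 0.056, with 6 genes higher and 5 lower. With all libraries those that rose were Gem, Areg, Cited2, Dusp1, Pde4b and Atf3. Those that fell were Sik1, Nr4a2, Fosl2, Fosb, Rgs2 and Per1. Pde4b, the gene of a cAMP phosphodiesterase, went from 12.8, 15.2 and 5.95 RPKM in M2, M3 and M4 to 73.9, 70.8 and 34.1 RPKM, a change of 2.36 (SE 0.20, adjusted p = 1.29e-06 in limma). M4 was the lowest at both times, and the changes were 2.49, 2.18 and 2.42 in M2, M3 and M4. Gem, which encodes a small GTPase, went from 0.173, 1.35 and 0.245 RPKM to 11, 21.7 and 14.9 RPKM, and Cited2, a transcriptional coregulator gene, from 5.72, 3.92 and 9.64 RPKM to 65.4, 34.4 and 99.8 RPKM. Areg, the gene of the growth factor amphiregulin, reached 24.3, 11.5 and 3.08 RPKM from 0.413, 0.103 and 0.111 RPKM.

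Sik1, the gene of a salt-inducible kinase that restrains the CREB coactivators, fell from 10.8, 7.77 and 10.6 RPKM to 1.90, 1.49 and 0.713 RPKM, a change of -2.50 (SE 0.22, adjusted p = 2.32e-06 in limma). Each 1 h library was below each 0 h library. Nr4a2, an orphan nuclear receptor gene whose printed window holds 4 copies of TGACG, fell from 28.7, 11.8 and 14.4 RPKM to 11, 4.64 and 0.113 RPKM. The fall of M4 was much the deepest, and the change of -2.40 (SE 0.48, adjusted p = 0.00414) became -1.33 (adjusted p = 6.05e-05) without the library labelled M4 at 1 h. Rgs2, a regulator of G protein signalling, fell from 51.1, 32.2 and 22.6 RPKM to 22.5, 13.5 and 10.7 RPKM. Nr4a1, a nuclear receptor gene of the same family, was at 16.6, 9.42 and 13.3 RPKM at 0 h and 48.7, 18.5 and 6.4 RPKM at 1 h and did not pass, up in M2 and M3 and down in M4, and Crem (-1.17), Nr4a3 (-0.52), Pde4d (-0.49), Pde4a (-0.10) and Id2 (0.75) did not pass either.

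Of 8 genes of a regulatory macrophage state that were tested, 2 rose, Il10 and Cd83, and 0 fell, where 4.66% of all genes rose and 7.41% fell. Cd83, which encodes a surface protein of activated antigen-presenting cells, went from 11.2, 17.0 and 11.6 RPKM to 89.0, 105 and 77.9 RPKM (change 2.74, SE 0.16, adjusted p = 3.58e-08 in limma). The median change of these 8 genes was 0.768 in M2, 0.517 in M3 and -1.07 in M4. Vegfa, the gene of an angiogenic growth factor, illustrates the split without passing the test, at 38.2, 24.9 and 40.2 RPKM at 0 h and 48.7, 31.1 and 8.13 RPKM at 1 h.

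Of 20 genes tested of the adrenergic and cAMP machinery 0 rose and 2 fell, near the 7.41% of all genes that fell. Rapgef3, the gene of the cAMP sensor EPAC1, fell by 1.08 on the log2 scale (lost without M4, adjusted p = 0.0612), at 0.844, 2.31 and 2.45 RPKM at 0 h and 0.327, 0.805 and 0.586 RPKM at 1 h. Prkaca, a catalytic subunit of protein kinase A, had a small fall of -0.30 that was lost after median-of-ratios scaling (adjusted p = 0.119) and in 5 of 7 removals of 1 culture (largest adjusted p = 0.202).

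**Figure D3:**
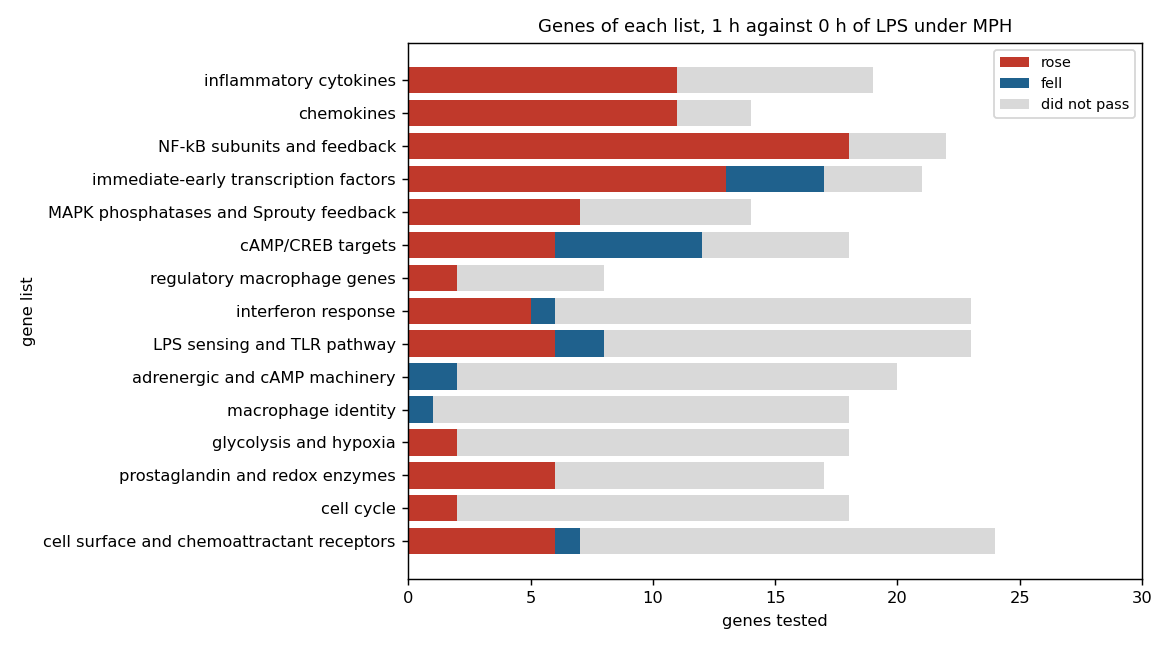
Number of genes of each list that rose (red), fell (blue) or did not pass (grey) at 1 h against 0 h of LPS under MPH, by limma with an adjusted p below 0.05. Chemokines (11 of 14) and NF-κB genes (18 of 22) are mostly red, the cAMP/CREB targets hold 6 red and 6 blue, and the macrophage identity list is 17 of 18 grey.

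The LPS sensing list held smaller changes, with 6 of 23 higher and 2 lower, where 4.66% of all genes were higher and 7.41% lower. Cd14, the LPS coreceptor gene, went from 205, 165 and 207 RPKM to 644, 503 and 280.2 RPKM (1.23, adjusted p = 0.00434 in limma), least in M4 and not past the threshold without M3 (adjusted p = 0.0668), and Tlr2 rose by 2.36. The kinase gene Map3k8 rose by 2.20, the adaptor gene Myd88 by 0.64 and Tlr4 by 0.43, while Tlr9 changed by -0.59 and Irak1 by -0.30, a call that was lost after median-of-ratios scaling (adjusted p = 0.119).

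Of 23 interferon-related genes 5 rose, Cxcl10, Gbp5, Irf1, Ifnb1 and Gbp2, and 1 fell, Stat2, where 4.66% of all genes rose and 7.41% fell. The call of Stat2 was lost after median-of-ratios scaling (adjusted p = 0.0555) and without M2 or M3 (largest adjusted p = 0.145). Irf1, a transcription factor gene, rose from 5.31, 13.3 and 6.14 RPKM to 40.8, 109 and 121 RPKM. Ifnb1, the interferon-β gene, was at 0.0362, 0.162 and 0.0218 RPKM at 0 h and at 8.50, 0.861 and 1.39 RPKM at 1 h, highest in M2. M3 stood apart before LPS: the 23 genes summed to 37.8 RPKM in M2, 374 RPKM in M3 and 49.9 RPKM in M4 at 0 h. Isg15, a ubiquitin-like antiviral gene, was at 1.88, 53.2 and 2.26 RPKM and the interferon regulator Irf7 at 1.83, 70.3 and 3.44 RPKM. Among the DMSO cultures at 0 h D4 had such levels, with a sum of 401 RPKM, where D3, D5 and D6 had 44.1, 60.4 and 127 RPKM. The source of this difference was not tested, and the block for culture removes a level that a culture holds at both times.

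Prostaglandin and redox genes rose in 6 of 17 cases and fell in 0. Ptgs2, the gene of cyclooxygenase-2, went from 4.26, 3.98 and 1.49 RPKM to 263, 222 and 36.9 RPKM (5.22, SE 0.42, adjusted p = 9.7e-07 in limma), with M4 the lowest. Acod1, whose product makes itaconate, and Sod2, a mitochondrial superoxide dismutase gene, rose by 5.55 and 1.94. Ptger4, a Gs-coupled prostaglandin E2 receptor gene, went from 0.427, 0.401 and 0.386 RPKM to 3.73, 3.60 and 5.87 RPKM, a change of 2.41 (SE 0.16), and M4 was the highest at 1 h. Of 24 surface receptor genes 6 rose and 1 fell, led by the adhesion molecule Icam1 (3.43) and the costimulatory receptor Cd40 (2.88). The fall, of the tumour necrosis factor receptor gene Tnfrsf1a (-0.38), was lost after median-of-ratios scaling (adjusted p = 0.0948). Of all genes 4.66% rose and 7.41% fell, the background for the next counts of 2 genes each. Of 18 glycolysis and hypoxia genes 2 rose, Hif1a (0.76, adjusted p = 0.0662 without M3) and Hk2 (0.68), and 0 fell. Of 18 cell cycle genes 2 rose, Mki67 (0.62) and Ccnb1 (0.44, adjusted p = 0.115 without M4), and 0 fell, with 4 higher after median-of-ratios scaling.

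The largest falls were led by Txnip, an arrestin-like gene whose product binds thioredoxin and limits glucose uptake. Txnip went from 60.8, 52.0 and 45.3 RPKM in M2, M3 and M4 to 6.39, 10.6 and 7.54 RPKM, a change of -2.63 (SE 0.29, adjusted p = 2.36e-05 in limma). The related arrestin gene Arrdc3 changed by -1.65, from 13.5, 8.0 and 3.97 RPKM to 4.90, 3.22 and 0.363 RPKM, and there the 1 h library of M2 was above the 0 h library of M4. Tsc22d3, which encodes the glucocorticoid-induced leucine zipper protein, changed by -2.06 (SE 0.15), from 20.6, 31.9 and 22.9 RPKM to 5.39, 6.61 and 4.73 RPKM. Id1, an inhibitor of helix-loop-helix factors, changed by -2.33, with M2 at 2.62 RPKM before LPS and M3 and M4 at 36.4 and 25.8 RPKM. Thbd, the thrombomodulin gene, was at 11.2, 8.25 and 8.63 RPKM at 0 h and 7.50, 2.55 and 0.653 RPKM at 1 h, a change of -1.68 that became -1.06 without the library labelled M4 at 1 h. Gm15441 is a transcript of the Txnip locus on the opposite strand, and since the use of strand in counting is not known, reads of the pair may not have been told apart. Sertad3, Rhov, Gm15441 and Phf13 changed by -1.74, -1.70, -1.57 and -1.54. Ier5l is among the 12 largest falls by the rule, at -1.50 (adjusted p = 0.0443), but was at 0.0358, 1.28 and 6.08 RPKM at 0 h and 0.0111, 0.0709 and 0.451 RPKM at 1 h. M2 thus held almost no signal at either time, and the call was lost without the library labelled M4 at 1 h (adjusted p = 0.141) and in 5 of 7 removals of 1 culture.

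The 3 cultures were compared gene by gene. M2, M3 and M4 had 334, 291 and 325 genes at least 2-fold higher and 180 were so in all 3. At least 2-fold lower were 107, 88 and 192 genes, with 31 in all 3 and 135 in M4 and neither other culture. The changes correlated across genes at r = 0.813 for M2 with M3, 0.693 for M2 with M4 and 0.686 for M3 with M4, as a description over 10239 genes that share libraries' depth and are not independent. When culture M4 was left out of the fit, 398 genes passed as higher, and 358 of these were also higher in M4, where 40% of all genes were higher. Of the 492 that passed as lower 415 were also lower in M4, where 60% of all genes were lower. Most of the response thus had the same direction in M4, and its size was less alike: of 270 genes called at least 2-fold higher without M4, 195 were at least 2-fold higher in it, and of 73 called at least 2-fold lower 42 were.

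The genes in which M4 lay furthest below M2 and M3, among those at least 2-fold changed in 1 direction in both, were Il10, Il6, Nr4a2, Pitpnc1, Osm, Il1a, Dusp14 and Serpinb2. Il10 changed by 5.83, 5.93 and 0.63 in M2, M3 and M4, and Il6 by 6.95, 5.86 and 2.36. Pitpnc1, the gene of a lipid transfer protein, was at 8.70, 8.87 and 1.41 RPKM at 1 h, and Dusp14 and Serpinb2, the latter an inhibitor of plasminogen activators, at 7.89, 6.46 and 0.724 and 2.43, 4.16 and 0.217 RPKM. Furthest above M2 and M3 were Atf3, Cx3cr1, Slco4a1, S1pr2, Il12b, Prkch, Ubb-ps and Pdgfb, of which Ubb-ps is a pseudogene of ubiquitin whose reads may belong to its parent gene. Atf3, the gene of a stress-induced transcription factor, was at 29.6, 25.3 and 159.5 RPKM at 1 h, Il12b, which encodes a subunit of interleukin-12, at 0.592, 0.765 and 4.30 RPKM and Pdgfb, a growth factor gene, at 14.1, 5.92 and 66.8 RPKM. S1pr2, a sphingosine-1-phosphate receptor gene, was at 6.16, 4.76 and 7.51 RPKM at 0 h and 1.91, 1.70 and 12.8 RPKM at 1 h, lower in M2 and M3 alone. At 1 h M4 lay inside the range of the 4 DMSO libraries for 9 of these 16 genes, M2 for 1 and M3 for 3. Over all genes the shares were 72.8%, 54.4% and 67.3%. The 16 genes were picked by the gap between M4 and the other cultures, so the counts only describe them. For Il10, Il6, Nr4a2, Pitpnc1 and Serpinb2 the library labelled M4 lay below that range, for S1pr2 and Pdgfb above it. The first 5 stood at 0.295, 2.31, 0.113, 1.41 and 0.217 RPKM in M4. Their lowest DMSO values were 0.401, 2.90, 0.1455, 1.51 and 0.284 RPKM. Over all genes at least 2-fold higher in M2 and M3, 239 in number, M4 rose less than both in 114.

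**Figure D4:**
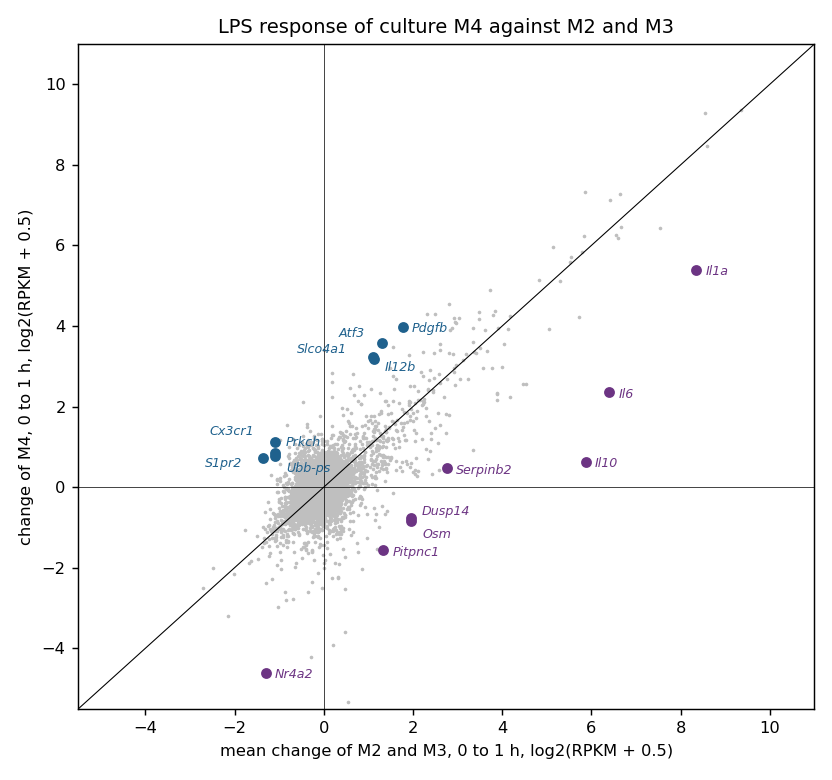
Change from 0 to 1 h of LPS in M4 against the mean change of M2 and M3, on the log2(RPKM + 0.5) scale, for 10239 genes (grey) with the 16 genes in which M4 lay furthest above (blue) or below (purple) both. The line marks equal change. Il10 lies at 0.63 in M4, far under the line, while Atf3 and Pdgfb lie over it.

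The response under MPH was set beside that of the 4 DMSO cultures in the same fit. That fit treats MPH and DMSO cultures as unrelated. M3 and D4 shared high interferon gene levels before LPS, and whether MPH and DMSO cultures were matched was not tested. Under DMSO 2467 of 10239 genes passed at 1 h (24.1%), 5.6% of genes higher and 18.5% lower, and 943 of the 1236 MPH calls, 76.3%, passed there in the same direction, which is 38.2% of the DMSO calls. The changes correlated across genes at r = 0.888, again a description. A test of the difference between the responses in limma called 20 genes (0.195%), 5 with a higher change under MPH (0.0488%) and 15 with a lower one (0.146%), and 561 genes (5.48%) had an unadjusted p below 0.05. Without the library labelled M4 at 1 h 30 genes were called (0.293%), 0.088% of genes higher and 0.205% lower, 17 of them among the 20. Il1b was not called, with a difference of -0.71 (SE 0.76, adjusted p = 0.964), nor were Tnf (1.28, SE 0.52) and Ccl3 (2.20, SE 0.44, adjusted p = 0.0717).

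For most of the 20 genes the treatments were apart before LPS and overlapped after it. At 0 h the 3 MPH and 4 DMSO libraries did not overlap for 17 of the 20 genes, where this held for 7.54% of all genes, and at 1 h for 1 of the 20, Zcchc14, where it held for 1.48%. The same libraries enter the test of the difference, so these counts describe the calls and do not support them. Pim1, a survival kinase gene, was at 26.5, 21.7 and 35.3 RPKM at 0 h and 132, 96.8 and 146 RPKM at 1 h under MPH, and at 5.39 to 9.46 and 79.3 to 178 RPKM under DMSO. It rose by 2.15 with MPH and 3.97 with DMSO, a difference of -1.81 (SE 0.15, adjusted p = 4.55e-05 in limma). Pde4b started at 12.8, 15.2 and 5.95 RPKM under MPH and at 0.585 to 1.93 RPKM under DMSO and reached 32.4 to 48.1 RPKM under DMSO at 1 h, a difference in response of -2.48 (SE 0.26, adjusted p = 0.000671). Dusp5 started at 0.436 to 1.18 RPKM under DMSO and rose there to 6.35 to 14.3 RPKM, where the 1 h library of M4 was inside that range and those of M2 and M3 above it, a difference of -3.23 (SE 0.47, adjusted p = 0.00845). Cd83, Ier2 and Junb rose under both treatments and less under MPH, with differences of -1.63, -1.47 and -2.20. Gpr132, a G protein-coupled receptor gene, rose under DMSO (1.69) and did not pass under MPH (-0.07), a difference of -1.76. Under MPH it was at 9.13, 19.0 and 9.10 RPKM at 0 h and 12.6, 20.8 and 5.09 RPKM at 1 h. It was thus up in M2 and M3 and down in M4, near the lowest DMSO 1 h library (5.15 RPKM).

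Sik1 and Nuak2, genes of related kinases, fell under MPH. Under DMSO neither passed, with changes of -0.53 and 0.36. Sik1 was at 0.912 to 2.22 RPKM under DMSO at 0 h and 0.704 to 1.48 RPKM at 1 h, and the responses differed by -1.97 (SE 0.29, adjusted p = 0.00845 in limma). Nuak2 was at 20.3, 17.3 and 18.4 RPKM at 0 h and 7.66, 7.75 and 6.36 RPKM at 1 h under MPH, and at 4.16 to 5.88 and 4.79 to 8.32 RPKM under DMSO, a difference of -1.66 (SE 0.23, adjusted p = 0.00652). The reverse was seen for Ptger4, at 1.68 to 3.34 RPKM under DMSO at 0 h and 2.56 to 7.46 RPKM at 1 h: MPH cultures started lower and rose more, by 1.48 (SE 0.21, adjusted p = 0.00652). Without the library labelled M4 at 1 h Il10 was also called, with a larger rise under MPH by 4.49 (adjusted p = 0.00122), as was Nr4a2, with a lower change by -1.39 (adjusted p = 0.00858). With that library their differences were 2.61 and -2.47 and did not pass. The fit without a block for culture called 0 genes in limma, with 83 at an unadjusted p below 0.05. Leaving out both 1 h DMSO libraries of low depth, D4 and D6, left 5 calls. With 1 culture left out the count was 5 without M2, 12 without M3, 13 without D4, 7 without D5 and 9 without D6, and among the genes given here with their levels Dusp5, Sik1 and Nuak2 were each lost at least 1 time (largest adjusted p = 0.0684, 0.0513 and 0.0647).

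**Figure D5:**
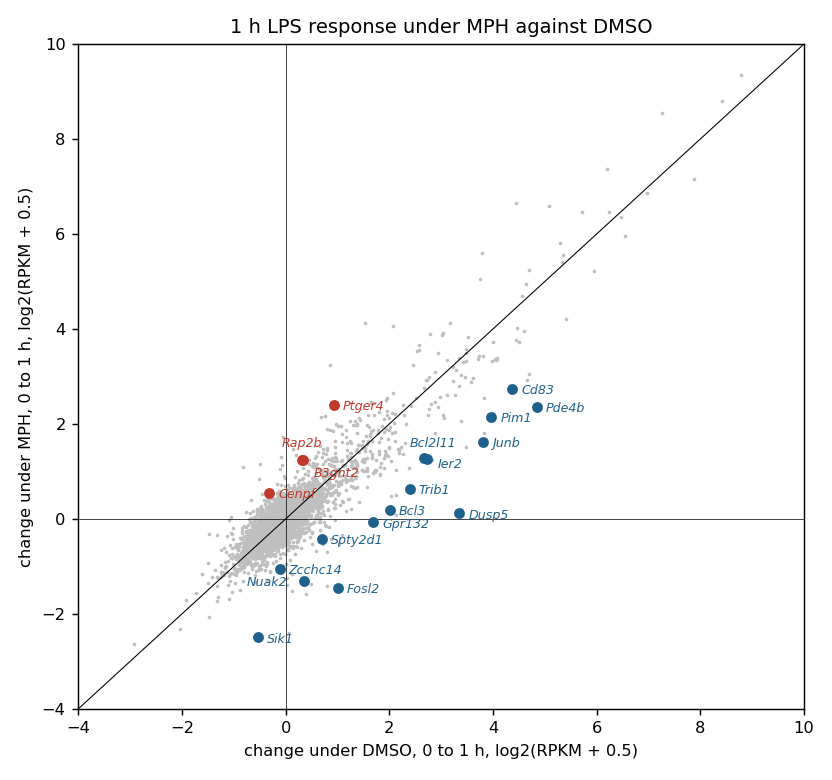
Change from 0 to 1 h of LPS under MPH against that under DMSO on the log2(RPKM + 0.5) scale for 10239 genes (grey), with genes whose responses differed in limma marked, all of the 20 but 1. Blue genes had the lower log2 change under MPH and red genes the higher. Pde4b lies at 2.36 under MPH and 4.85 under DMSO.

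Between 1 and 2 h of LPS under MPH many immediate-early genes and cAMP targets fell on average. More of the 1 h rises rose again than fell back. In limma 3368 of 10239 genes passed (32.9%), 872 higher (8.52%) and 2496 lower (24.4%), and 1955 passed without the library labelled M4 at 1 h, 1767 without culture M3 and 1422 without culture M4. This comparison shares the 1 h libraries with the one above, so the values are given side by side. Egr1 changed by -3.89 on the log2 scale (SE 0.52, adjusted p = 0.000298) after its rise of 5.80, to 7.86, 0.411 and 1.91 RPKM in M2, M3 and M4. Fos and Jun changed by -3.67 and -2.23 (Jun was lost without M3, adjusted p = 0.0778), and the RNA-decay factors Zfp36 and Zfp36l2 by -2.68 and -2.38. Of 21 immediate-early genes 13 fell from 1 to 2 h and 0 rose, and of 18 cAMP and CREB targets 10 fell and 0 rose. The cultures differed within the latter list. Crem, Nr4a2, Areg and Fosl2 fell in M2 and M3 and rose in M4. There they went from 0.946, 0.113, 3.08 and 7.10 RPKM at 1 h to 10.2, 1.11, 11.6 and 10.4 RPKM at 2 h. Others, such as Rgs2 and Per1, fell in every culture.

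The largest rises from 1 to 2 h were those of Rnd1, U90926, Nos2, Saa3 and Ccl5. Rnd1, the gene of a small GTPase-related protein, went from 1.84, 2.02 and 0.763 RPKM at 1 h to 13.0, 70.9 and 33.4 RPKM at 2 h, a change of 4.03 (SE 0.32, adjusted p = 1.15e-05 in limma). Nos2, the inducible nitric oxide synthase gene, was at 0.00452, 0.299 and 0.0357 RPKM at 1 h and 0.203, 46.3 and 6.74 RPKM at 2 h, and M3 had by far the highest level. Saa3, an acute-phase gene, and the chemokine gene Ccl5 were also highest in M3, at 26.7, 1525 and 378 and 126, 360.1 and 204 RPKM at 2 h. The calls of Nos2 and Saa3 were lost without M3 or M4, and that of Ccl5 without M4 (largest adjusted p = 0.191, 0.161 and 0.147 for the 3 genes). Il1b rose again by 1.94 (adjusted p = 0.0195 in limma), by far the most in M4. It went from 934, 633 and 133 RPKM in M2, M3 and M4 at 1 h to 1386, 1810 and 1794 RPKM at 2 h. Tnf had a change of -1.03 (adjusted p = 0.0595). Of the 477 genes that rose at 1 h 178 rose again and 69 fell, and of the 759 that fell 206 fell again and 76 rose. Over all genes 8.52% rose and 24.4% fell from 1 to 2 h. The 759 genes that fell at 1 h were close to those shares in both directions.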

How the data were processed

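RNA was extracted and TruSeq libraries were made, per the labels' protocols. Per the submitters' processing notes, which list no version numbers or order, HISAT2, SAMtools, cutadapt, FastQC and the mm9 build were used. Which counter and annotation were used, and whether strand was, is not given in the sources used here. Their deposited table holds RPKM values computed by the authors for 44401 transcript lines under 24761 names, 8852 of them with more than 1 line. The line with the highest mean was kept for each name. No value is 0, and how transcripts without reads were given a value is not known. Low values are therefore read as possible upper limits.

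Values were analysed as log2(RPKM + 0.5) in limma 3.58.1 (limma-trend, R 4.3.3) over 21 libraries (the 4 DMSO and 3 MPH cultures at 0, 1 and 2 h). The model had a mean for each treatment and time and culture as a block (10 residual degrees of freedom). Genes were tested where 3 or more libraries reached 1 RPKM (10239 genes), with Benjamini-Hochberg adjustment and a threshold of 0.05. Every adjusted p in the text is of this kind, and each ± is an SD. Pairing by culture comes from the labels and was checked in the values: deviations from the group means correlated between 0 and 1 h at 0.787, 0.824 and 0.741 within M2, M3 and M4, and at -0.534 to -0.257 between cultures. Deviations from a mean of 3 cultures balance out, so the negative values follow from the positive ones and are no separate check.

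The libraries, gene lists and tests were chosen with earlier results of these data known. The text names Il1b, the 12 largest rises and falls with 1 direction in all cultures, up to 4 genes of each list with the smallest p, the 10 smallest p of the difference from DMSO with and without the library labelled M4 at 1 h, the 8 genes with M4 furthest above and furthest below M2 and M3, and the 5 largest rises and falls from 1 to 2 h. A gene that the rule names is not reported here and was left out of its list. Other genes were named after their values were seen. The fitting code was tested on simulated data. Alternatives were other pseudocounts, filters, scaling, array weights, no block, other sets of libraries and each culture left out. The cultures UKD, r1 and r2 entered only as an alternative. The 21 libraries had about 5.4 to 79.2 megareads.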

Additional observations from a re-analysis of the deposited data

Results flagged for a closer look

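The response to 1 h of LPS differed between MPH and DMSO by the limma test of the difference itself in 20 genes, all but 1 of which are given, and each value here is the log2 change under MPH minus that under DMSO. The change was lower under MPH for Dusp5 by -3.23, Pde4b by -2.48, Fosl2 by -2.45, Junb by -2.20, Bcl3 by -1.82 and Pim1 by -1.81. Trib1, Gpr132 and Cd83 differed by -1.77, -1.76 and -1.63, Ier2 by -1.47, Bcl2l11 by -1.38, Spty2d1 by -1.12 and Zcchc14 by -0.933. It was also lower for Sik1 (-1.97) and Nuak2 (-1.66), which fell under MPH, as did Fosl2 and Zcchc14. The change was higher under MPH for Ptger4 (1.48), Rap2b (0.911), B3gnt2 (0.908) and Cenpf (0.875). Bcl3, an IκB family gene, was at 4.82, 12.1 and 11.8 RPKM at 0 h and 5.90, 13.4 and 13.2 RPKM at 1 h in M2, M3 and M4, and at 1.53 to 3.13 and 5.0 to 21.7 RPKM in the DMSO cultures. Trib1, a Tribbles pseudokinase gene, was at 6.03, 5.45 and 4.44 RPKM and 10.9, 6.47 and 8.39 RPKM under MPH and at 0.800 to 1.81 and 6.14 to 11.4 RPKM under DMSO. Bcl2l11, the gene of the pro-apoptotic protein Bim, was at 21.4, 17.1 and 14.0 RPKM and 57.4, 32.8 and 41.1 RPKM under MPH and at 5.99 to 8.96 and 28.6 to 63.8 RPKM under DMSO. The levels differed most before LPS for these 3 genes. With each culture left out in turn Pim1, Pde4b, Cd83, Gpr132 and Ptger4 passed every time, whereas Ier2, Nuak2, Dusp5, Sik1, Spty2d1 and Junb were lost at least 1 time, with adjusted p up to 0.175. The remaining genes were not followed in this way.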

How the results depend on the processing

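The count of 1236 genes at 1 h against 0 h fell to 315 with no replicate block (194 higher and 121 lower, all 315 among the 1236), to 722 with a filter of 5 RPKM, which tests 6956 genes, to 613 with the 9 MPH libraries alone and to 691 with the 6 alone, and rose to 1918 with array weights. Leaving out 1 culture gave 692 to 1297, with 692 without M2 and 748 without M3. The 20 differences from DMSO became 0 with no replicate block, 52 with array weights, 64 against all 7 DMSO cultures, 5 without the 1 h libraries of D4 and D6, and 5 to 26 without 1 culture. The 3368 genes between 1 and 2 h became 332 with no replicate block, 1955 without the library labelled M4 at 1 h (1550 with median-of-ratios scaling as well), 1855 with the 9 MPH libraries alone, and 1422 to 3451 without 1 culture. After median-of-ratios scaling this count was 2675, with 1284 higher and 1391 lower in place of 872 and 2496. The cause of these moves was not tested where fewer libraries or genes do not give it.

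Il1b changed by 6.21 to 7.89 under the alternatives run, and by 6.21 to 7.76 with 1 culture left out. Of the named genes called, 54 of 65 at 1 h, 5 of 11 for the difference from DMSO and 6 of 10 from 1 to 2 h passed with every culture left out in turn. Without M2 the sign turned for Cx3cr1 (0.043, at -1.10 without M4) and Pitpnc1 (-0.231, at 1.33 without M4), neither called with all cultures and both called without M4. With no replicate block 16 of the 65 did not pass, Nr4a2 (adjusted p = 0.0594), Id1 and Arrdc3 among them. The block removes the difference in level between cultures, and the 3 MPH cultures limit the precision of every value. The alternatives without the D4 and D6 libraries and with median-of-ratios scaling and no M4 library at 1 h were chosen after seeing the data.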

Other observations

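Genes of chemoattractant and surface receptors held further splits between the cultures at 1 h, named here after their values were seen. Trem1, an amplifying receptor of myeloid cells, was at 11, 32.6 and 9.09 RPKM at 0 h and 30.5, 63.2 and 2.83 RPKM at 1 h in M2, M3 and M4, and the chemokine receptor gene Ccr1 at 11, 6.74 and 3.08 and 25.2, 15.9 and 1.77 RPKM. Odc1, the gene of the first enzyme of polyamine synthesis, was at 37.3, 80.4 and 34.4 RPKM at 0 h and 82.4, 143 and 14.1 RPKM at 1 h, and the phosphodiesterase gene Pde3b at 4.42, 3.68 and 3.65 and 9.42, 6.29 and 0.511 RPKM. In each of the 4 genes M2 and M3 were higher at 1 h than at 0 h and M4 was lower, and 0 of the 4 passed in limma over the 3 cultures, while Trem1, Ccr1 and Odc1 passed without the library labelled M4 at 1 h (adjusted p = 0.00436, 0.0081 and 0.00829). The DMSO 1 h libraries spanned 3.08 to 9.54 RPKM of Trem1, 1.45 to 9.06 RPKM of Ccr1, 13.3 to 19.6 RPKM of Odc1 and 0.413 to 2.36 RPKM of Pde3b.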
